A study of Rattus norvegicus with 18 samples.

Results

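The beta subunits of the sodium-potassium pump are encoded by Atp1b1, Atp1b2 and Atp1b3. These 3 genes, taken by their symbols, were followed among the 30735 genes counted in the cerebral cortex of rats after subarachnoid hemorrhage (SAH). The members were chosen by symbol with earlier fold changes of the same libraries between sham, SAH 1d and SAH 7d in view, and the choice has no threshold. For this reason the differences between groups in the 3 genes are given as a description without a test. All 3 genes were among the 18444 genes with enough counts to be tested.

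The sodium-potassium pump moves sodium out of the cell and potassium into it at the cost of ATP, and so keeps up the gradients that nerve impulses and many transporters use. Each pump pairs an alpha subunit, which carries the ions and splits ATP, with a beta subunit, a glycoprotein needed to bring the alpha subunit to the membrane. Small FXYD proteins bind the pair and tune it. In the brain, Atp1b1 is best known from neurons, Atp1b2 was first described as an adhesion molecule on glia, and Atp1b3 is made widely, blood cells included.

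RNA was sequenced from 18 adult Sprague Dawley rats with 1 library each, 6 in the sham group, 6 taken 1 day after SAH (SAH 1d) and 6 taken 7 days after SAH (SAH 7d). SAH was made by perforating a vessel from inside the artery, and sham rats had the surgery without the perforation, so the groups share the operation. No day after surgery is stated for the sham rats, and the same sham group was compared with SAH 1d and with SAH 7d. The methods name the whole cortex of the operated side, whereas the sample labels speak of both sides and of mice. The strain is stated only in the methods, no sex is stated there, and the gene identifiers in the counts are those of the rat.

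Libraries held 27270026 to 38271014 counted reads. The tissue label was checked against markers fixed for the cell types of the cortex. All 10 neuronal markers were present, and Snap25, a protein of the synaptic release machinery, reached 1840.6 ± 404.0 FPKM (SD, n = 6) in sham. FPKM is the number of fragments per kilobase of transcript, scaled to the mapped fragments of the library. The oligodendrocyte marker Mbp, a myelin protein, stood at 2858.2 ± 828.0 FPKM and the astrocyte marker Aldoc at 590.4 ± 64.1 FPKM in sham. A library is written here with its group and number, and 2 of them, SAH 7d-5 and SAH 1d-3, stood apart from their groups in the members. SAH 1d-3 had the highest score of blood leukocyte markers of all libraries (mean log2 CPM 4.05), and SAH 7d-5 had the highest microglial score (8.35) and the lowest neuronal score (7.66). SAH 1d-4 and SAH 1d-6 stood apart in choroid plexus markers, with scores of 5.11 and 5.64 against -0.61 to 1.57 in the other SAH 1d libraries. CPM is the read count scaled to the size of the library, here after adjusting the libraries by the trimmed mean of M values (TMM). In whole tissue, fewer cells of a type and less RNA per cell cannot be told apart.

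RefSeq (assembly GRCr8) holds all 3 genes, but the set of promoters used here has none for Atp1b1. For Atp1b2 and Atp1b3 the 250 bases before the start of the gene are shown. They are given because these members of 1 family differ in base composition there. Both lie on the minus strand, Atp1b2 at chr10:54823709-54823958 and Atp1b3 at chr8:105821152-105821401, and they are written 5′ to 3′ along the gene. Capitals mark GGGCGG on either strand (a GC box, read as CCGCCC on the other strand) and TATAAA on the strand of the gene.
Atp1b2: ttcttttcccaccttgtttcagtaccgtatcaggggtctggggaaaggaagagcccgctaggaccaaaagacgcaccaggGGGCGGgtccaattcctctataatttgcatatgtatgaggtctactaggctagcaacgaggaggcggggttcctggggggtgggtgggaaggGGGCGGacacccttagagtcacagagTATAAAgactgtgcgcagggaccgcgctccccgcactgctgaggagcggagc
Atp1b3: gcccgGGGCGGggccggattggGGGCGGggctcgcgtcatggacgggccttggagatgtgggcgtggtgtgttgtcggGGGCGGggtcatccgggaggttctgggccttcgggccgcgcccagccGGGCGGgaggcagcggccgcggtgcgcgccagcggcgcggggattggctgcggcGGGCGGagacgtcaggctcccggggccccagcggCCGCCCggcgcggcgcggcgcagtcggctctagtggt
The Atp1b2 window was 58.0% G and C with 12 CG pairs, and the Atp1b3 window was 79.6% G and C with 38 CG pairs, more than in 98.3% of the 33469 promoters of the same length. GGGCGG was found 2 times in Atp1b2 and 6 times in Atp1b3, and 30.5% of all promoters hold it at least once. TATAAA was found once in Atp1b2, 52 bases before the start, and not in the Atp1b3 window, against 8.06% of all promoters that hold it. These matches describe the letters only, and no measurement of the series bears on the binding of a factor.

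Per unit of length, Atp1b1 was by far the most abundant beta subunit transcript of the sham cortex. Atp1b1 lay between 522.6 and 891.6 FPKM in the 6 sham libraries, with a median of 759.8. Atp1b2 lay between 123.5 and 172.8 FPKM with a median of 136.5. Atp1b3 lay between 65.5 and 78.2 FPKM with a median of 70.8. The 3 ranges did not overlap in sham, and by mean FPKM the genes ranked 43, 434 and 1078 among 30735. The order Atp1b1 over Atp1b2 over Atp1b3 held in 16 of 18 libraries. In the other 2, SAH 7d-5 and SAH 1d-3, Atp1b3 was above Atp1b2, so that after SAH the ranges of these neighbours overlapped.

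At SAH 1d, Atp1b1 was lower than in sham. In sham its normalized count was lowest at 1504.2 CPM, in sham-1, with a median of 2045.5 and a highest value of 2327.1. In SAH 1d it was lowest at 1377.3 CPM with a median of 1540.5 and a highest value of 1656.7. The groups overlapped through sham-1 alone, since the other 5 sham libraries were at 1985.5 CPM or more, and all 6 SAH 1d libraries were below the sham mean. The fitted log2 fold change was -0.40 with a standard error of 0.10, a level 24.2% lower. On the FPKM scale the log2 difference was -0.27, while the median of all genes moved by 0.09 in the other direction with a pseudocount of 1 and by 0.11 with a pseudocount of 0.1.

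At SAH 7d, 5 of the 6 libraries carried Atp1b1 between 1651.7 and 2007.1 CPM, and SAH 7d-5 was at 1034.7 CPM, the lowest of all 18 libraries. The median was 1916.7 CPM and the range overlapped with both other groups. The log2 fold change was -0.21 (SE 0.17) against sham and 0.19 (SE 0.15) against SAH 1d. Without SAH 7d-5 the SAH 7d mean went from 1755.0 ± 376.2 CPM (SD, n = 6) to 1899.1 ± 145.8 CPM (SD, n = 5), and the log2 fold change went to -0.09 against sham and to 0.30 against SAH 1d. The distance from sham at SAH 7d therefore rested largely on 1 library.

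Atp1b2 showed no shift between groups beyond the spread of the libraries. Its sham libraries ran from 384.1 to 592.3 CPM with a median of 437.7, and its SAH 7d libraries from 387.6 to 569.3 CPM with a median of 490.6. In SAH 1d, 5 libraries stood between 458.2 and 594.3 CPM, and SAH 1d-3 was at 209.2 CPM, the lowest value of the gene. The log2 fold changes were 0.03 (SE 0.20) for SAH 1d versus sham, 0.07 (SE 0.12) for SAH 7d versus sham and 0.04 (SE 0.20) for SAH 7d versus SAH 1d. Without SAH 1d-3 the value for SAH 1d versus sham was 0.18 and that for SAH 7d versus SAH 1d was -0.11, so the sign of the latter depended on that library. The 95% interval for SAH 1d versus sham started at -0.37, so a moderate difference was not detectable at this spread.

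Atp1b3 was higher after SAH, with its highest values in the same pair of libraries. In sham it ran from 127.3 to 162.0 CPM with a median of 135.9. In SAH 1d it had a median of 152.2 CPM, 5 libraries between 141.9 and 157.9 CPM, and 237.6 CPM in SAH 1d-3. In SAH 7d it ran from 140.5 CPM through a median of 173.3 to 306.6 CPM in SAH 7d-5. All 6 libraries of each SAH group were above the sham mean, yet the ranges overlapped with sham in both cases. The log2 fold change was 0.24 (SE 0.12) at SAH 1d and 0.48 (SE 0.17) at SAH 7d against sham, and 0.24 (SE 0.20) for SAH 7d versus SAH 1d. Leaving out SAH 1d-3 brought the first to 0.11 and the third to 0.37, and leaving out SAH 7d-5 brought the second to 0.31 and the third to 0.05. Each pair of these comparisons shares a group, so they are not independent.

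**Figure D1:**
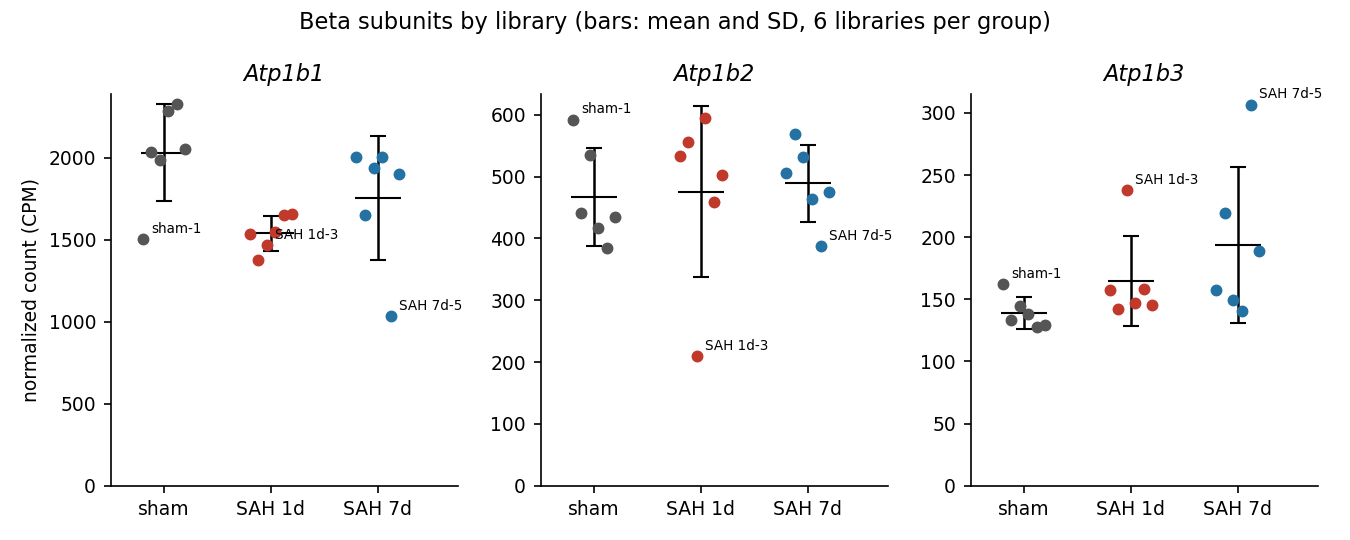
Normalized counts in CPM (vertical axes, starting at 0) of Atp1b1, Atp1b2 and Atp1b3 in sham, SAH 1d and SAH 7d, 1 point per library, with the mean and SD of 6 libraries. Atp1b1 in SAH 1d sat at 1377.3 to 1656.7 CPM with sham-1 as the only sham library in that range, and SAH 7d-5 and SAH 1d-3 carried the extremes of Atp1b2 at 209.2 CPM and of Atp1b3 at 237.6 and 306.6 CPM.

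As a background for these fold changes, edgeR placed 25.4% of the 18444 tested genes under an adjusted p of 0.05 for SAH 1d versus sham, 10.5% as lower and 14.9% as higher. A differentially expressed gene (DEG) also needs a change of at least 2-fold, which 6.64% of the tested genes met and none of the 3 fold changes of the beta subunits reached. For SAH 7d versus sham the share was 0.0% in edgeR, although 2842 genes had an unadjusted p under 0.05 and DESeq2 called 459 genes. For SAH 7d versus SAH 1d edgeR called 1.37% of the tested genes. The members themselves were not tested, because they were chosen with these contrasts known.

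The members differed in how widely they varied among libraries of 1 group. In sham the coefficient of variation of CPM was 14.5% for Atp1b1, 17.0% for Atp1b2 and 9.19% for Atp1b3. In SAH 1d it was 7.04%, 29.1% and 22.1% in the same order, and without SAH 1d-3 it was 7.35%, 9.79% and 4.8%. In SAH 7d it was 21.4%, 12.8% and 32.2%, and without SAH 7d-5 it was 7.68%, 8.39% and 19.0%. The members were counted deeply, from 3806 reads for Atp1b3 in a sham library to 73912 reads for Atp1b1 in another.

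The makeup of the beta transcripts was compared as the share of each gene in their summed FPKM. In sham Atp1b1 made up 77.3% ± 5.32, Atp1b2 15.2% ± 3.97 and Atp1b3 7.47% ± 1.37 (SD, n = 6). In SAH 1d the shares were 71.0% ± 2.76, 18.3% ± 5.1 and 10.7% ± 3.01, and in SAH 7d 71.3% ± 7.32, 17.0% ± 1.75 and 11.7% ± 6.21 (SD, n = 6). Every share overlapped between groups. The share of Atp1b3 was 16.7% in SAH 1d-3 and 23.9% in SAH 7d-5, against at most 12.5% in any other SAH library, and Atp1b1 went down to 57.9% in SAH 7d-5. Sham-1 had the lowest share of Atp1b1 and the highest shares of the others among the sham libraries, with 67.6% Atp1b1, 22.3% Atp1b2 and 10.1% Atp1b3.

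The summed beta FPKM was 965.8 ± 108.2 in sham, 864.0 ± 53.5 in SAH 1d and 925.6 ± 117.7 in SAH 7d (SD, n = 6). The ranges overlapped between the groups, and the lowest sum was 692.7 in SAH 7d-5.

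**Figure D2:**
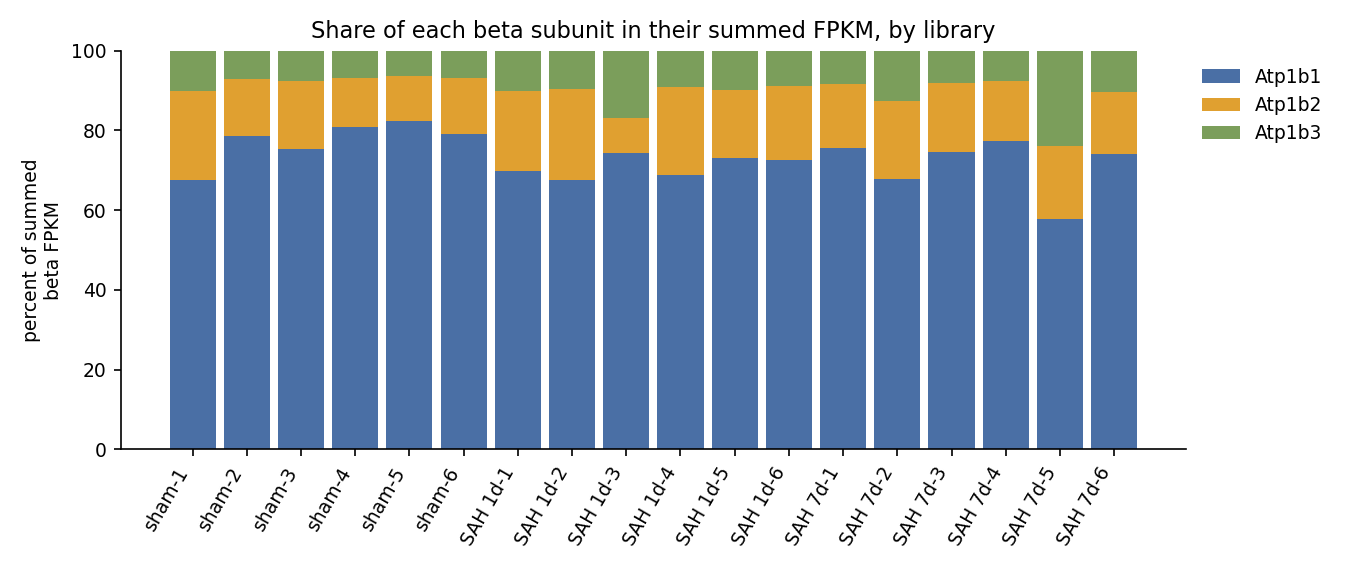
Share of each beta subunit in their summed FPKM, in percent, 1 bar for each of the 18 libraries. Atp1b1 filled 57.9% to 82.3% of every bar, and Atp1b3 was widest in SAH 7d-5 at 23.9%.

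Whether a member varied with the cell types of the sample was examined within groups, which the choice of the members did not use. From each library's log2 CPM the mean of its group was taken off, and the remainder was compared with that of a marker score, the mean log2 CPM of a list. Atp1b1 followed the neuronal score closely, with Pearson r = 0.95 over 18 libraries (permutation within groups, 100000 resamples, p = 3e-05, adjusted over 9 relations 0.00027). Spearman rho was 0.93 (permutation p = 1e-05, the smallest these permutations can give, adjusted p = 9e-05), and without SAH 7d-5 and SAH 1d-3, the libraries farthest from the median score, r was 0.92. The relation held in each group, with r = 0.971 in sham, 0.783 in SAH 1d and 0.998 in SAH 7d. Among all tested genes 0.699% had an r with the neuronal score at least as high. Sham-1 showed both at once, the lowest sham level of Atp1b1 and the lowest sham neuronal score, 9.05 against 9.42 or more.

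Atp1b2 went with the astrocyte score. Pearson r was 0.67 (permutation p = 0.00029, adjusted 0.00087), rho was 0.65 (permutation p = 0.00308, adjusted 0.0139), and 0.558% of tested genes had an r as high. It was 0.766 in sham, 0.831 in SAH 1d and 0.663 in SAH 7d, and 0.68 without sham-5 and SAH 7d-2, the libraries farthest from the median. SAH 1d-3 had the lowest Atp1b2 together with the lowest astrocyte score of its group, 6.65. With SAH 7d-5 and SAH 1d-3 left out, r was 0.61 (permutation, adjusted p = 0.0296).

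Atp1b3 went against the neuronal score, with r = -0.84 (permutation p = 0.00023, adjusted 0.00087) and rho = -0.65 (permutation p = 0.00663, adjusted 0.0199). Within groups r was -0.891, -0.658 and -0.928 in sham, SAH 1d and SAH 7d. The SAH 1d value rested on SAH 1d-3, which deviated from its group by -0.221 in the score and 0.555 in Atp1b3. Among the other SAH 1d libraries the lowest score, -0.119 in SAH 1d-2, came with the lowest Atp1b3, -0.188. Over all groups r was -0.73 without SAH 7d-5 and SAH 1d-3 (permutation, adjusted p = 0.0251). Among all tested genes 8.06% had an r with the neuronal score as low. The other 6 relations did not pass the threshold. Of these, Atp1b2 with the neuronal score turned from r = 0.24 (permutation, adjusted p = 0.272) to r = -0.74 without SAH 7d-5 and SAH 1d-3 (permutation, adjusted p = 0.0054). Atp1b3 with the astrocyte score likewise turned from -0.07 (permutation, adjusted p = 0.865) to 0.71 (permutation, adjusted p = 0.0281). Both signs thus depended on these libraries. A member and a score share the depth and the scaling of the library they come from.

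**Figure D3:**
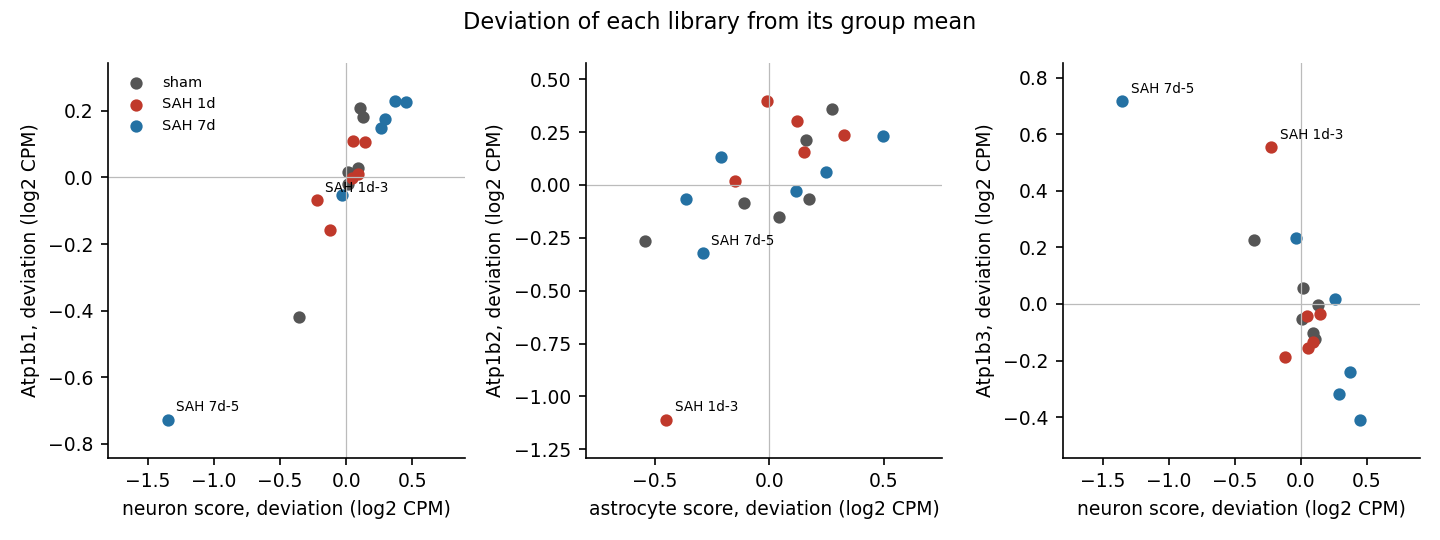
Deviation of each library from its group mean in log2 CPM, for Atp1b1 against the neuronal score, Atp1b2 against the astrocyte score and Atp1b3 against the neuronal score, 1 point per library and 18 per panel. The points rise for Atp1b1 (r = 0.95) and Atp1b2 (r = 0.67) and fall for Atp1b3 (r = -0.84), with SAH 7d-5 at the far left of the neuronal panels.

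The neuronal score itself differed between the groups, and all 10 neuronal markers fell at SAH 1d against sham (edgeR, adjusted p under 0.05, where 10.5% of tested genes were lower). The median log2 fold change of the list was -0.59, against 0.01 over all tested genes. The summed FPKM of the list was 2659.8 to 4567.0 in sham, 2471.4 to 2899.8 in SAH 1d and 1122.2 to 4257.2 in SAH 7d. No neuronal marker was at 0, and the part of this shift in the lower Atp1b1 of SAH 1d was not tested. The astrocyte list was divided, as Gfap and Sox9 rose and Aldh1l1 and Aldoc fell among 10 markers. The blood leukocyte list, with 5 of 7 genes tested and 4 of them higher at SAH 1d, summed to 0.407 to 4.06 FPKM in sham and 3.76 to 101.1 FPKM in SAH 1d. Its maximum in SAH 1d was in SAH 1d-3 and its maximum in SAH 7d, 57.8 FPKM, in SAH 7d-5, the same libraries in which Atp1b3 was highest, and its part in the Atp1b3 level was not tested. SAH 7d-5 also had the highest summed microglial markers, 3067.7 FPKM against a sham range of 187.1 to 308.5. Its meningeal fibroblast score was 8.03, where no other library was above 5.78, and the summed FPKM of that list was 651.6 against 38.3 to 79.7 in sham. The part of these markers in the Atp1b1, Atp1b3, Fxyd2 and Fxyd5 levels of SAH 7d-5 was not tested.

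Choroid plexus markers rose at SAH 1d in 3 of 6 tested genes (edgeR, where 14.9% of all tested genes were higher). Their summed FPKM reached 1448.1 in SAH 1d-6 against at most 85.4 in sham. With SAH 1d-4 and SAH 1d-6 left out, an alternative chosen after seeing the data, none of the 6 passed in edgeR and none had an unadjusted p under 0.05. The log2 fold change of SAH 1d versus sham was then -0.43 for Atp1b1, -0.09 for Atp1b2 and 0.33 for Atp1b3, so the sign of the small Atp1b2 value turned. Of the 10 neuronal markers 7 passed without these libraries, all lower.

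The genes whose CPM ran most like a member over the 18 libraries differed for each. The 5 closest to Atp1b1 among 9395 genes with a mean of at least 10 CPM were Klhdc2 (Spearman rho 0.97), Trim3 (0.96), Rab3a, a GTPase of synaptic vesicles (0.95), Kcnj3, a potassium channel subunit (0.95), and Eno2, the neuronal enolase (0.95). Those closest to Atp1b2 were Mmp15, a membrane protease (0.85), Myh11, the smooth muscle myosin (0.83), Slc41a1, a magnesium transporter (0.83), Hepacam, an adhesion protein of glia (0.82), and Rapgef3, a cAMP-driven exchange factor (0.82). Among those closest to Atp1b3 were Lamp2, a lysosomal membrane protein (0.95), Tmem123 (0.92), Wapl (0.92) and Lims1 (0.92). Without SAH 7d-5 and SAH 1d-3 these rho values were 0.94 to 0.96 for Atp1b1, 0.74 to 0.86 for Atp1b2 and 0.89 to 0.93 for Atp1b3. The likeness is a description over libraries that include the group differences, and it was closer for Atp1b1 and Atp1b3 than for Atp1b2.

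Among themselves the members did not move as a unit. With group means removed, Atp1b1 and Atp1b3 had r = -0.76, Atp1b2 and Atp1b3 r = -0.5, and Atp1b1 and Atp1b2 r = 0.04 over 18 libraries. The Spearman rho was -0.64, -0.21 and -0.26 in the same order. Without SAH 7d-5 and SAH 1d-3, r over the remaining 16 libraries was -0.6, 0.47 and -0.84. The sign for Atp1b2 and Atp1b3 thus turned without these libraries, and the small value for Atp1b1 and Atp1b2 became strongly negative. The ratio of Atp1b1 to Atp1b3 FPKM was 10.7 ± 2.23 in sham, 6.96 ± 1.31 in SAH 1d and 7.3 ± 2.95 in SAH 7d (SD, n = 6), and its lowest value was 2.43 in SAH 7d-5. The ratio of Atp1b2 to Atp1b3 was 2.02 ± 0.181 in sham, and it was 0.532 in SAH 1d-3 and 0.764 in SAH 7d-5.

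Proteins that bind the pump, and the relatives of the pump subunits, are not members, and those with enough counts were tested. They came from 3 lists, the FXYD proteins, the NKAIN proteins and the relatives of the pump subunits. Of 15 listed genes 10 were tested, and at SAH 1d 4 of them had changed against sham, 1 higher and 3 lower (edgeR, adjusted p under 0.05, against 25.4% of all tested genes). The median log2 fold change of the 10 was -0.08, against 0.01 over all tested genes. Groups did not overlap in 13.3% of all tested genes.

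Of the FXYD proteins 6 of 7 were tested and 2 changed at SAH 1d, both as DEGs. Fxyd5, also called dysadherin, a partner with a role in cell adhesion, rose from 8.05 to 14.7 CPM in the sham libraries to 23.2 to 69.5 CPM in SAH 1d (log2 fold change 1.79, SE 0.26, edgeR adjusted p = 0.00061). Fxyd7, a partner known from the brain, fell from 38.3 to 63.2 CPM to 13.1 to 31.2 CPM (log2 fold change -1.04, SE 0.19, edgeR adjusted p = 0.00234). For Fxyd1, the log2 fold change was 0.20 (SE 0.16), for Fxyd2 0.71 (SE 0.40), for Fxyd3 0.26 (SE 0.37) and for Fxyd6 -0.26 (SE 0.12), with edgeR adjusted p values of 0.387, 0.207, 0.63 and 0.136. Fxyd2, the partner of kidney pumps, was at 20.4 CPM in SAH 7d-5 and at most at 0.913 CPM in every other library. Of the NKAIN proteins, which bind the beta subunit Atp1b1, all 4 were tested and 2 fell. Nkain2 was at 23.8 to 32.7 CPM in the sham libraries and at 16.1 to 21.0 CPM in SAH 1d, with no overlap (log2 fold change -0.48, SE 0.10, edgeR adjusted p = 0.00556). Nkain4 was at 24.5 to 42.0 CPM in sham and at 9.92 to 27.4 CPM in SAH 1d, where 5 of 6 libraries lay below all sham libraries (log2 fold change -0.78, SE 0.22, edgeR adjusted p = 0.0191). Without SAH 1d-4 and SAH 1d-6 the call of Nkain4 was lost (edgeR adjusted p = 0.0552).

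**Figure D4:**
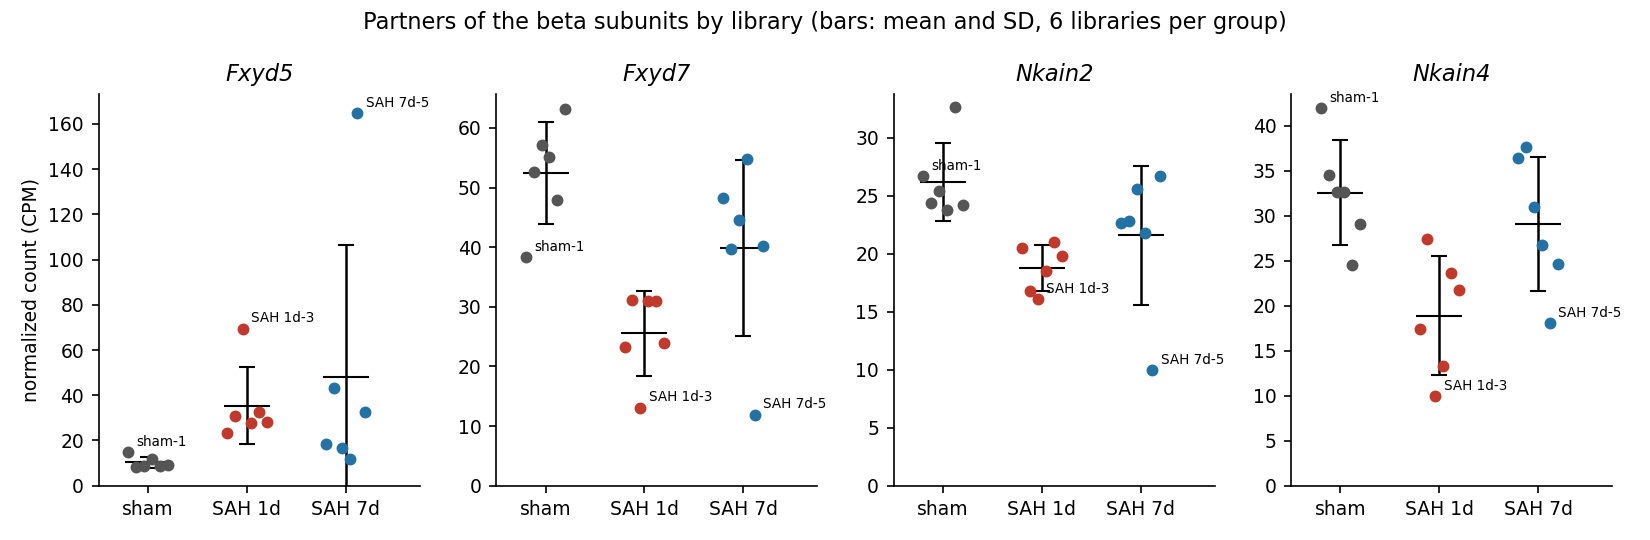
Normalized counts in CPM (vertical axes, starting at 0) of Fxyd5, Fxyd7, Nkain2 and Nkain4, 1 point per library, with the mean and SD of 6 libraries per group; the SD bar of Fxyd5 in SAH 7d is cut at 0. In SAH 1d all libraries of Fxyd7 and Nkain2 sat below all sham libraries and all of Fxyd5 above them, and SAH 7d-5 stood out for Fxyd5 at 164.7 CPM.

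At SAH 7d none of the 10 genes passed against sham in edgeR, with 3 at an unadjusted p under 0.05, and DESeq2 called Fxyd5 alone. Fxyd5 ran from 11.7 to 164.7 CPM with a log2 fold change of 2.23 (SE 0.59, edgeR adjusted p = 0.214), and its largest value was again in SAH 7d-5. Against SAH 1d none passed in edgeR or DESeq2, with 3 at an unadjusted p under 0.05 in each. With SAH 7d-5 left out Fxyd7 passed, where 1545 of all 18444 tested genes passed. With SAH 1d-3 left out as well Fxyd7 and Nkain2 passed, where 2512 of all tested genes passed. Both genes were higher at SAH 7d. The relatives of the pump subunits were not tested for lack of counts. Atp1b4, a beta-like protein, reached at most 0.0278 FPKM, and Atp4b, the beta subunit of the gastric proton pump, had no count in any of 18 libraries, where 3 counts would be 0.11 CPM in the smallest library.

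**Figure D5:**
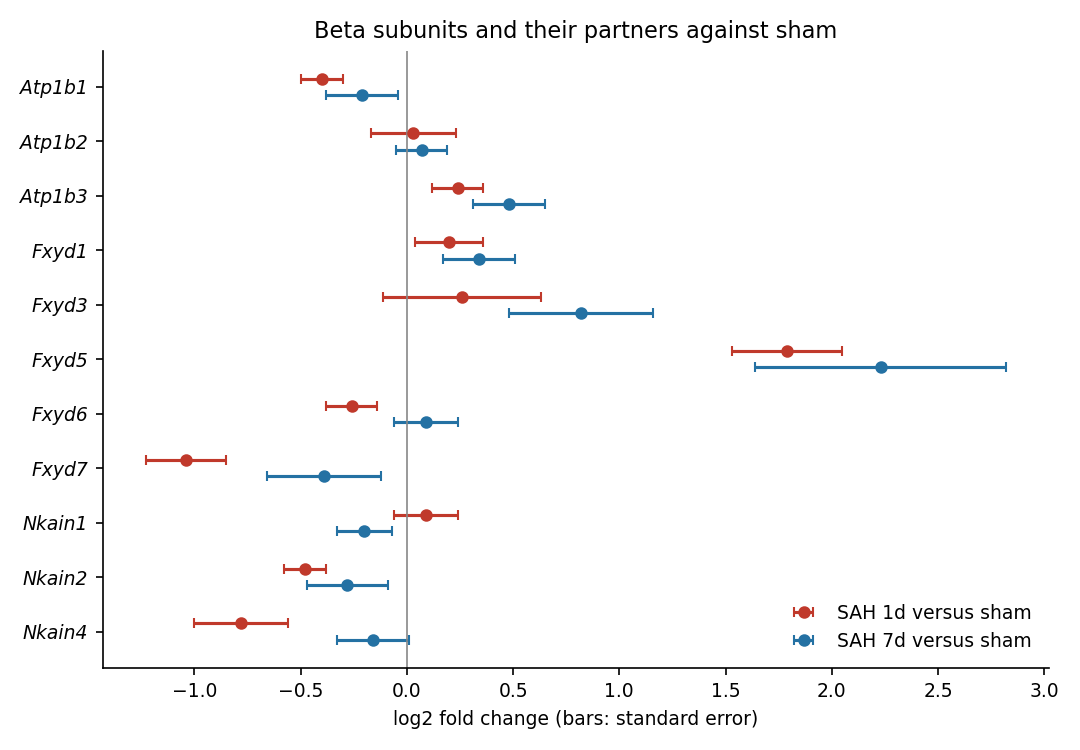
Log2 fold change against sham (horizontal axis) of the 3 beta subunits and 8 of their partners at SAH 1d and SAH 7d, with the standard error as bars. At SAH 1d the beta subunits lay between -0.40 and 0.24. Fxyd7 at -1.04, Nkain4 at -0.78 and Nkain2 at -0.48 lay to their left, and Fxyd5 at 1.79 lay farthest to the right. Fxyd2 and Nkain3 were tested but are not drawn. Fxyd2 was at 3.73 (SE 1.13, edgeR adjusted p = 0.216) at SAH 7d against sham, with its highest count in SAH 7d-5.

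Other membrane proteins that build or use the ion gradients were given in 3 lists with 33 tested genes. At SAH 1d 18 of the 33 changed against sham, 2 higher and 16 lower (edgeR, against 25.4% of all tested genes), with a median log2 fold change of -0.54. In 1 fit of all 18 libraries the number was 9. Of the calcium pumps 4 of 7 fell, among them Atp2b2 of the plasma membrane at -0.98 (SE 0.23, edgeR adjusted p = 0.00908) and Atp2a2 of the endoplasmic reticulum at -0.63 (SE 0.08, edgeR adjusted p = 0.000246), followed by Atp2b1 at -0.60 and Atp2b4 at -0.48. The call of Atp2b4 (edgeR adjusted p = 0.0483) was lost when SAH 1d-2, SAH 1d-4, SAH 1d-5, SAH 1d-6 or any sham library but sham-1 was left out, with edgeR adjusted p from 0.0524 to 0.108. Of the voltage-gated sodium channel subunits 5 of 8 were called lower, led among them by Scn1a at -0.99, Scn3b at -0.83, Scn2a at -0.79 and Scn8a at -0.77. The largest fall of the list, Scn4b at -1.20 (SE 0.42), just missed the threshold (edgeR adjusted p = 0.0513). All 8 had an unadjusted p under 0.05 in edgeR, and DESeq2 called 7 of them, all lower. Of 18 transporters that run on the gradients 7 fell and 2 rose. The sodium-calcium exchanger Slc8a2 and the GABA transporter Slc6a11 were each at -0.90, the exchanger Slc24a2 at -0.80, and the sodium-bicarbonate transporter Slc4a7 rose by 0.88 (SE 0.19, edgeR adjusted p = 0.00601). The call of Slc24a2 was lost without SAH 1d-2, sham-4 or sham-6 (edgeR adjusted p from 0.055 to 0.066) and that of Scn8a without SAH 1d-6, sham-2, sham-4, sham-5 or sham-6 (from 0.0515 to 0.068). The log2 fold change of Atp1b1, -0.40, was smaller in size than that of each of these named genes, and the differences between genes were not tested. At SAH 7d none of the 33 passed in edgeR against sham or SAH 1d, with 0 and 1 at an unadjusted p under 0.05, and DESeq2 called none. With SAH 7d-5 left out Atp2a2, Scn2a and Scn3b passed against SAH 1d, all higher at SAH 7d. In that fit 1545 of the 18444 tested genes passed. With SAH 1d-3 left out as well 8 of the 33 passed, 7 higher and Slc4a7 lower, where 2512 of all tested genes passed. The lists were not tested against these shares.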

How the data were processed

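RNA of the cerebral cortex of 18 rats was sequenced. The methods state Illumina sequencing and alignment to the rat genome Rnor_6.0, release 95, and the submitters' processing notes name fastp, HISAT2, DESeq2 1.16.1 and the build mm9. Neither the counting program nor its use of strand is named in these sources. The authors deposited a table of read counts per gene, which is not normalized, and a table of FPKM, which the authors scaled to transcript length and mapped fragments. Column names match the labels of the 18 libraries, which give the groups, and no column belongs to another series.

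Counts were filtered with filterByExpr over 18 libraries, scaled by TMM and fitted with edgeR 4.0.16 (R 4.3.3, glmQLFit and glmQLFTest, two-sided) on the 12 libraries of each comparison. P-values were adjusted by Benjamini-Hochberg over 18444 genes, with a call at an adjusted p under 0.05. FPKM served for levels between genes. Marker scores used log2 CPM with a prior count of 2, in scipy 1.17.1, pandas 2.3.3 and numpy 2.4.6 under Python 3.11.15, with plots from matplotlib 3.10.9. Alternatives were DESeq2 1.42.0 and its size factors, limma 3.58.1 on log2(FPKM + 1) and log2(FPKM + 0.1), 1 fit of all libraries, other filters, a replicate block, and libraries left out, among them SAH 1d-4 and SAH 1d-6, chosen after seeing the data.

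The members, lists and tests were chosen with earlier results of these data known. Genes were named by a rule. It takes the members, the FXYD genes with enough counts, and up to 4 called genes of each other partner or related list with the largest change. It adds up to 3 genes per marker list with the highest sham FPKM, and the 5 genes most like each member. A few genes that the rule takes are not reported here. Gfap, Sox9 and Aldh1l1, as well as Atp1b4, Atp4b, Scn4b and Nkain3, were named after their values were seen. The lists of 9 cell types were neuron, astrocyte, oligodendrocyte, microglia, endothelial cell, choroid plexus, meningeal fibroblast, blood leukocyte and red cell. Endothelial markers rose at SAH 1d in 2 of 7 tested genes, and microglial markers rose in 2 and fell in 1 of 8. Oligodendrocyte markers rose in 1 and fell in 1 of 9, and no meningeal (6) or red cell (3) marker passed. Of all tested genes 25.4% were called in this comparison, so these small counts do not set the lists apart from other genes.

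In data simulated for SAH 1d versus sham over 18444 genes, edgeR recovered 53% of 2-fold and 90% of 4-fold changes with 7 false calls. For SAH 7d versus sham it recovered 51% and 84% with 4 false calls. For SAH 7d versus SAH 1d it recovered 40% and 72% with 5 false calls. Counting intervals cover counting error only. All 3 members matched RefSeq by symbol.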

Additional observations from a re-analysis of the deposited data

Results flagged for a closer look

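Within each group of 6 libraries, the highest and lowest value of every member and FXYD gene with enough counts, and of the beta shares and their sum, was compared with its neighbour by Dixon's gap test. Of 39 groups 11 had a value set apart, where chance gives about 1 in 20. All but 1 of these lay in SAH 1d-3 or SAH 7d-5. The 39 groups share libraries, and the shares and the sum are made from the members. The 11 values are therefore not separate findings.

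Among the beta subunits, Atp1b1 was at 1034.7 CPM in SAH 7d-5 against 1651.7 to 2007.1 CPM in the other SAH 7d libraries. Atp1b2 was at 209.2 CPM in SAH 1d-3 against 458.2 to 594.3 CPM in the rest of SAH 1d. Atp1b3 was at 237.6 CPM in SAH 1d-3 against 141.9 to 157.9 CPM. The share of Atp1b3 in the beta FPKM was 16.7% in SAH 1d-3 against 8.85% to 9.93%, 23.9% in SAH 7d-5 against 7.54% to 12.5%, and 10.1% in sham-1 against 6.26% to 7.61%. The summed beta FPKM was 692.7 in SAH 7d-5 against 927.1 to 1007.9.

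Among the partners, Fxyd5 was at 69.5 CPM in SAH 1d-3 against 23.2 to 32.8 CPM, and at 164.7 CPM in SAH 7d-5 against 11.7 to 43.2 CPM. In SAH 7d-5 Fxyd2 was at 20.4 CPM against 0.383 to 0.668 CPM and Fxyd7 at 11.9 CPM against 39.7 to 54.7 CPM.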

How the results depend on the processing

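All 195 alternative values of the members' log2 fold changes moved by less than the SD between replicates. Leaving out 1 of 6 libraries can hardly move a group mean that far, so this limit says little about such fits. In them, Atp1b2 changed sign against sham at SAH 1d (-0.05 to 0.18) and between the SAH groups (-0.11 to 0.11). Every other member value kept its sign. Atp1b3 still spanned 0.11 to 0.29 against sham at SAH 1d, and 0.05 to 0.37 between the SAH groups. At SAH 1d versus sham the partners called numbered 3 to 5 in every alternative. Nkain2, Slc8a2, Slc24a2, Scn8a and Atp2b4 lost their calls in 1 fit of all 18 libraries (edgeR adjusted p = 0.0693, 0.0521, 0.0795, 0.092 and 0.117). Atp2b4 also lost its call without a filter on low counts (0.0556), with the replicate block (0.0966) and with limma on FPKM (0.143 and 0.144), as did Scn8a with limma (0.0505 and 0.0546). Without SAH 1d-4 and SAH 1d-6, an alternative chosen after seeing the data, Nkain4, Scn8a and Atp2b4 lost theirs (0.0552, 0.0653 and 0.0756), and 70 genes were past the threshold for SAH 7d versus SAH 1d. Fxyd6 gained a call without sham-6 (0.0475). The cause of these changes was not tested.

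In 1 fit of all 18 libraries, 9 related genes and 2462 of all genes were called for SAH 1d versus sham, 9 genes for SAH 7d versus sham, and 779 genes for SAH 7d versus SAH 1d, where the main numbers were 18, 4684, 0 and 252. DESeq2 called 1 partner and 459 genes for SAH 7d versus sham and 1012 for SAH 7d versus SAH 1d. For the latter limma on FPKM called 406 genes with a pseudocount of 1 and 403 with 0.1. Without SAH 7d-5 and SAH 1d-3 that comparison gave 2 partners, 8 related genes and 2512 genes. With each library left out in turn it gave 0 to 1 partners, 0 to 3 related genes and 102 to 1545 genes, the last without SAH 7d-5, and SAH 7d versus sham gave 0 to 3 genes. On the FPKM scale 79.0% of the calls for SAH 1d versus sham were higher, against 58.7%. DESeq2 put the share of higher calls for SAH 7d versus SAH 1d at 36.3% and limma on FPKM at 9.61% and 8.68%, against 20.6%.

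No pairing by replicate number was seen, as correlations between same-numbered libraries ran from -0.252 to 0.197. Low correlations cannot exclude a shared step in the processing. The replicate block left 29 genes for SAH 7d versus SAH 1d.

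By CPM, not scaled to length, the Atp1b2 share was 20.2% in SAH 7d and the Atp1b3 share 5.33% in sham.

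The 3 correlations past the threshold kept their sign and their call in every alternative. Those that missed it reversed as follows. By Spearman rho, Atp1b1 with oligodendrocyte markers gave 0.02, Atp1b2 with neuronal -0.09 and Atp1b3 with astrocyte markers 0.13. On log2(FPKM + 1), Atp1b3 with oligodendrocyte markers gave -0.05. Without SAH 7d-5 and SAH 1d-3, Atp1b2 with neuronal markers gave -0.74 and Atp1b3 with astrocyte markers 0.71. With the replicate block, Atp1b2 with oligodendrocyte markers gave -0.15 and Atp1b3 with astrocyte markers 0.14. With libraries left out, Atp1b1 ran from -0.48 to 0.07 with astrocyte and from -0.42 to 0.10 with oligodendrocyte markers, and Atp1b3 from -0.23 to 0.19 and from -0.11 to 0.21.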
